A study of Gallus gallus with 12 samples.

Results

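The genes described here are 10 genes of the circadian clock and of light sensing in the hen's utero-vaginal junction (UVJ), the oviduct segment whose tubules store sperm. They are the core clock genes CLOCK, ARNTL, NPAS2, PER2, PER3, CRY1 and CRY2, the nuclear receptors NR1D2 and RORB, and the opsin OPN3. They were found by the gene symbol that the array design attached to a transcript, and 9 of the 10 symbols were present with 17 features (1 summarised value for a set of probes) of 37374 on the array. PER3 was not found under that symbol and is not analysed here. CLOCK had 4 features, PER2 and CRY2 had 3 each, CRY1 had 2, and ARNTL, NPAS2, NR1D2, RORB and OPN3 had 1 each. A further feature named BMAL1, a synonym of ARNTL in the RefSeq gene table, is given beside ARNTL and is not counted among the 17. Features of 1 gene share their source and are not replicates.

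All birds were White Leghorn hens of an egg-laying line. The methods give a cycle of light and dark in their description of rearing and do not separately state the light at sampling. The mated group comprised 4 hens that were each paired with 1 male, and the SF group 4 hens whose cloaca received seminal fluid (SF) of those males, spun free of sperm. The 4 control hens received neither a male nor fluid, so that the effect of the fluid and that of the infusion procedure cannot be told apart. The UVJ of mated and SF hens was taken 24 h after treatment and that of control hens along with them, and each hen gave 1 array. The labels and methods state neither the hens' ages nor the time of day at which each was sampled, and the clock time of a hen was not tested. Mated hens held the middle, SF hens the last and control hens the first positions of a single slide, so that slide position and treatment cannot be told apart.

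In the vertebrate clock, ARNTL pairs with CLOCK or its relative NPAS2 to switch on the period (PER) and cryptochrome (CRY) genes, whose proteins then shut off that pair, and the round takes about a day. In a second loop the NR1D receptors repress and the ROR receptors activate ARNTL. In birds, peripheral organs hold such clocks, and in the laying hen the oviduct works to a daily cycle set by ovulation. OPN3, also called encephalopsin, is an opsin made in many tissues outside the eye.

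Of the 17 features only OPN3 differed between groups past an unadjusted p of 0.05. It lay lower in mated hens than in SF hens and in control hens, while no clock gene passed that threshold in any of the 3 comparisons. Features with an unadjusted p under 0.05 numbered 828 (2.22% of all features) in mated versus control, 2417 (6.47%) in SF versus control, 1756 (4.7%) in mated versus SF and 1628 (4.36%) in the F test over the 3 groups. Against these shares, the members that passed numbered 1 of 17 in mated versus control, 0 of 17 in SF versus control, 1 of 17 in mated versus SF and 1 of 17 in the F test. After Benjamini-Hochberg adjustment over all features in limma, 0 features of the array passed in any comparison. The smallest adjusted p was 0.912 for mated versus control, 0.735 for SF versus control and 0.641 for mated versus SF. The median log2 difference over the 17 features was 0.01 in mated versus control, 0.00 in SF versus control and 0.05 in mated versus SF, against medians over all features of 0.00, 0.01 and -0.01.

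Values are log2 intensities, the mean ± SD is over 4 hens, and differences are log2 differences with the standard error (SE) or 95% confidence interval of the limma fit. The random-sequence control of the array gave log2 3.81 to 3.95, and all 17 features exceeded it on 12 of 12 arrays. It was exceeded by 94.5% to 96.0% of the features of an array, and replicates correlated at r = 0.940 to 0.990 within groups. Marker genes of cells that the sample can hold, 14 of eggshell gland, 13 of squamous epithelium and 15 of ciliated cells, all averaged above the random-sequence control. Of the eggshell gland genes, 1 fell below it on at least 1 array. Because most features exceed that control, these levels do not show which segments or cells the sample held.

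**Figure D1:**
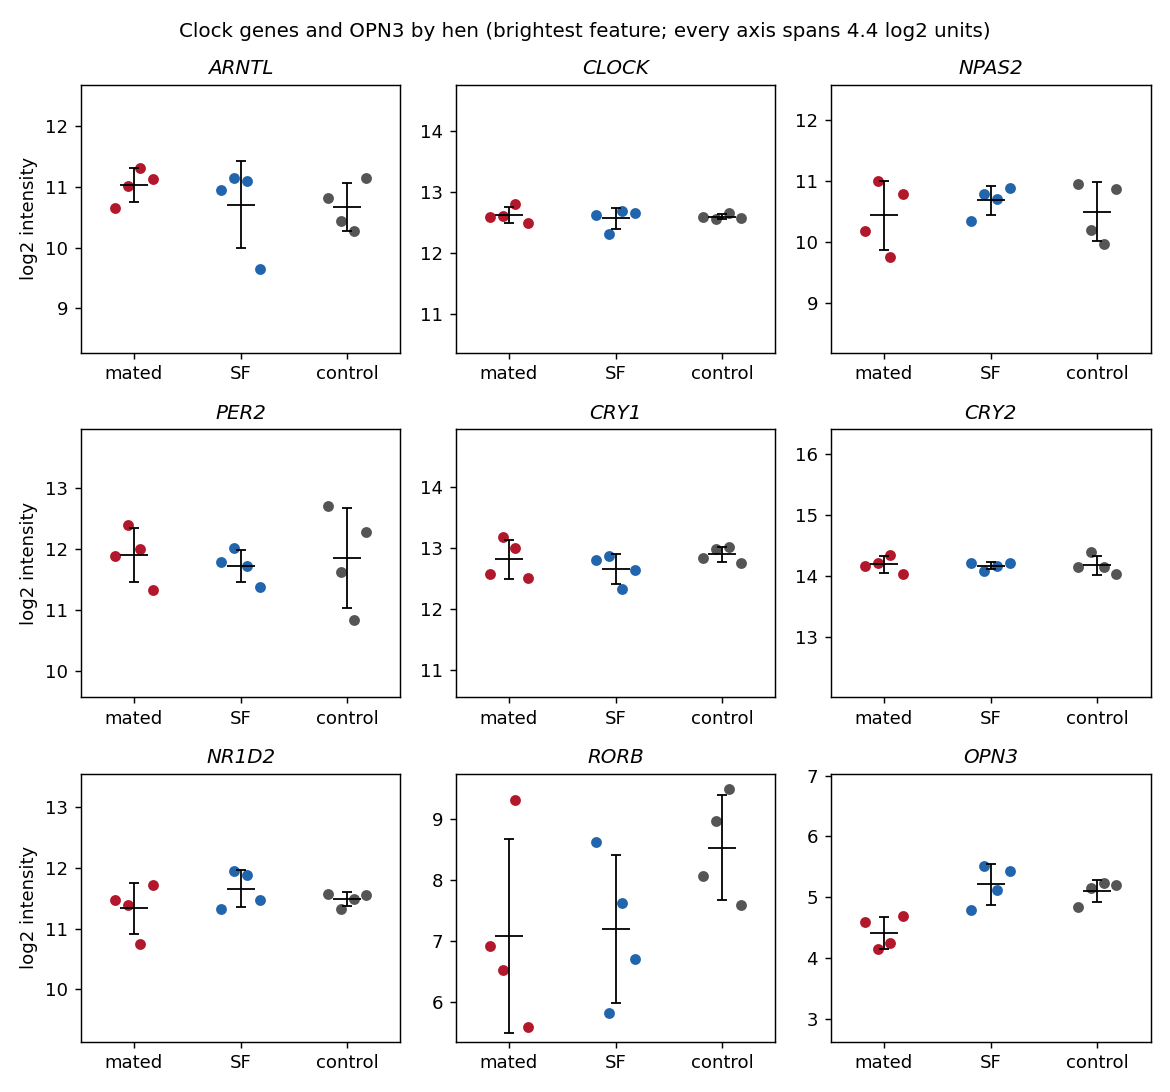
Level of each gene in 12 hens as log2 intensity (y axis), by group (x axis), with the brightest feature of each gene among the 17; points are hens and the bar and whiskers are the mean and SD of 4 hens. Every panel spans the same height, so RORB shows the widest spread, CLOCK and CRY2 the narrowest, and in OPN3 the mated hens lie below all other hens.

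OPN3 measured 4.59, 4.15, 4.25 and 4.70 in the 4 mated hens. In SF hens it measured 4.79, 5.51, 5.12 and 5.44, and in control hens 4.84, 5.16, 5.24 and 5.20. Every mated hen lay below every SF hen and every control hen, whereas SF and control hens overlapped. The mean was 4.42 ± 0.26 in mated hens, 5.21 ± 0.33 in SF hens and 5.11 ± 0.18 in control hens (SD, n = 4 each). The difference was -0.69 (SE 0.18, 95% interval -1.09 to -0.29) for mated versus control, a ratio of 0.620. It was -0.79 (SE 0.18, interval -1.19 to -0.39) for mated versus SF, a ratio of 0.577. SF versus control differed by 0.10 (SE 0.18, interval -0.30 to 0.51), with an unadjusted p of 0.585 in limma. In limma the unadjusted p was 0.00311 for mated versus control and 0.00120 for mated versus SF. With adjusted p values of 1.0 and 0.733 in limma, neither passed the adjustment over all features. The exact permutation test, two-sided, gave p = 0.0286 for both, which is the smallest p that 4 against 4 hens allow. Groups that do not overlap were found for 1.34% of all features in mated versus control, 3.84% in SF versus control and 3.04% in mated versus SF, and for 1, 0 and 1 of the 17 features.

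OPN3 was measured close to the lower end of the array's range. Its mean was above that of 8.63% of the features. Its distance to the random-sequence control was 0.73, 0.24, 0.30 and 0.85 in mated hens, 0.95, 1.70, 1.31 and 1.63 in SF hens, and 0.96, 1.25, 1.36 and 1.36 in control hens. Mated hens were therefore the nearest to that control, and in linear units the OPN3 intensity was 17.7 to 26.0 in mated hens, 27.6 to 45.5 in SF hens and 28.7 to 37.7 in control hens. With 16 added to each intensity before the logarithm, the difference was -0.43 for mated versus control and -0.51 for mated versus SF. Dim features passed the unadjusted threshold more often than bright ones. Of the 9344 dimmest features (the lower 25% by mean), those that passed made up 4.82% in mated versus control and 11.4% in mated versus SF, and of the brighter features 1.35% and 2.47%. Of 1751 features whose mean lay within 0.5 log2 units of OPN3, 105 (6.0%) passed in mated versus control, 33 of them lower, and 6 had a p as small as that of OPN3. In mated versus SF 212 (12.1%) of these passed, 123 of them lower, and 10 had a p as small as that of OPN3. The part of this dimness in the OPN3 difference was not tested.

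**Figure D2:**
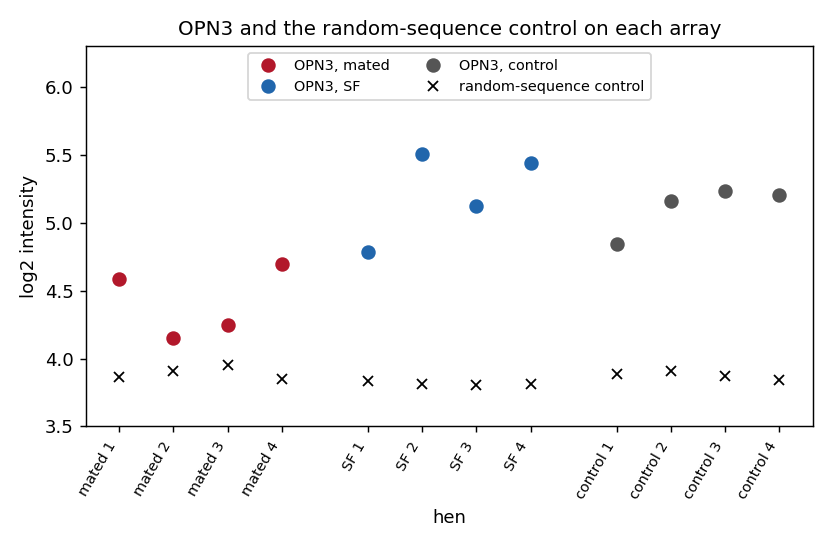
OPN3 level (points, coloured by group) and the random-sequence control (crosses) on each of 12 arrays, as log2 intensity (y axis) for each hen (x axis). The OPN3 points of mated hens lie 0.24 to 0.85 above the control probes, those of SF hens 0.95 to 1.70 and those of control hens 0.96 to 1.36.

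In limma the OPN3 difference did not rest on 1 hen. With each of the 12 arrays left out in turn, the value lay between -0.78 and -0.60 for mated versus control (limma, unadjusted p of 0.00140 to 0.0114) and between -0.93 and -0.69 for mated versus SF (unadjusted p of 0.000268 to 0.00466). The exact permutation p rose to 0.0571 for mated versus SF without mated replicate 1, 2, 3 or 4. It rose to the same value for mated versus control without mated replicate 2 or control replicate 3. The OPN3 slope on the eggshell gland score explained beside RORB was -0.05 (SE 0.09, unadjusted p = 0.583). Mated versus control was -0.75 when the tissue score was fitted beside the groups. The opsins OPN1LW, OPN4, OPN5, RGR and RRH gave 0 of 5 genes past the unadjusted threshold of limma in each comparison. Over all features 2.22%, 6.47% and 4.7% passed in the 3 comparisons, so 0 of 5 does not set OPN3 apart from these opsins. RRH (3.86 to 4.22) lay at the level of the random-sequence control and fell below it on at least 1 array. The median of the 5 opsins was -0.0065 in mated versus control, -0.058 in SF versus control and 0.028 in mated versus SF. OPN5, another non-visual opsin, averaged 5.27, 5.38 and 5.16 in mated, SF and control hens. The genes whose levels ran most like OPN3 over the 12 hens were P4HA1 (r = 0.861), a collagen prolyl hydroxylase subunit, and LARGE (r = 0.851), a glycosyltransferase of dystroglycan. These are the largest coefficients over all named genes and over arrays that share the group differences, and they are given as a description.

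ARNTL, the partner of CLOCK in the activating pair, measured 10.65, 11.02, 11.31 and 11.13 in mated hens. It measured 10.95, 11.14, 11.09 and 9.64 in SF hens and 10.82, 10.44, 10.27 and 11.14 in control hens. SF replicate 4 was the lowest of the 12 hens by a wide margin and mated replicate 3 the highest, and all 3 groups overlapped. The feature named BMAL1 measured 11.30, 11.60, 12.03 and 11.66 in mated hens, 11.74, 11.73, 11.71 and 10.15 in SF hens and 11.33, 11.15, 10.89 and 11.65 in control hens. Both features ordered the hens nearly alike (r = 0.983 over 12 hens). ARNTL differed by 0.36 (SE 0.33, interval -0.36 to 1.07) for mated versus control, 0.04 (SE 0.33, interval -0.68 to 0.75) for SF versus control and 0.32 (SE 0.33, interval -0.40 to 1.04) for mated versus SF. None passed the unadjusted threshold. The SF values rest on SF replicate 4: without it, ARNTL was 0.39 above control in SF hens and mated versus SF was -0.04.

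CLOCK, the DNA-binding partner of ARNTL, was among the steadiest genes. Its 4 features spanned between 0.35 and 0.49 log2 units over all 12 hens, and only 11.1% to 12.9% of the features of the array had a smaller spread within groups. The brightest CLOCK feature averaged 12.63 ± 0.13 in mated hens, 12.57 ± 0.17 in SF hens and 12.60 ± 0.04 in control hens (SD, n = 4 each). Over the 4 features and 3 comparisons the intervals lay between -0.31 and 0.31. The 4 features split into 2 pairs that each ran together (r = 0.918 and 0.951 over 12 hens) and did not follow the other pair (r = -0.11 to 0.02), so the small CLOCK differences between hens depended on the probe set. NPAS2, which can stand in for CLOCK, measured 10.19, 11.005, 9.75 and 10.79 in mated hens, 10.35, 10.79, 10.70 and 10.89 in SF hens and 10.95, 10.20, 9.96 and 10.86 in control hens. The lowest and the highest NPAS2 value both came from mated hens, and the differences were -0.06 (SE 0.30) for mated versus control, 0.19 (SE 0.30) for SF versus control and -0.25 (SE 0.30) for mated versus SF.

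PER2, a repressor of the pair, measured 11.88, 12.39, 12.00 and 11.32 in mated hens by its brightest feature. It measured 11.79, 12.01, 11.71 and 11.37 in SF hens and 12.70, 11.61, 10.83 and 12.28 in control hens. The lowest and the highest of the 12 hens were control replicates 3 and 1 in all 3 PER2 features, which correlated at r = 0.954 to 0.985. The spread was 0.82 in control hens, larger than the 0.45 in mated hens and the 0.26 in SF hens (SD). PER2 differed by 0.05 (SE 0.36, interval -0.76 to 0.85) for mated versus control, -0.13 (SE 0.36) for SF versus control and 0.18 (SE 0.36) for mated versus SF. These intervals allow for differences of well over 0.5 log2 units.

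CRY1, a strong repressor of the activating pair, measured 12.57, 13.17, 13.00 and 12.50 in mated hens by its brightest feature. It measured 12.80, 12.87, 12.32 and 12.63 in SF hens and 12.84, 12.99, 13.01 and 12.76 in control hens. SF versus control was -0.25 (SE 0.17, interval -0.62 to 0.13) for this feature and -0.34 (SE 0.24, interval -0.86 to 0.18) for the other, whose hens followed the first at r = 0.820. Neither passed the unadjusted threshold (limma, unadjusted p of 0.178 and 0.182). CRY2, its close relative, averaged 14.19 ± 0.13 in mated hens, 14.17 ± 0.06 in SF hens and 14.18 ± 0.15 in control hens (SD, n = 4 each) by its brightest feature. Over the 3 CRY2 features the differences ran between -0.03 and 0.06 in the 3 comparisons, with intervals between -0.325 and 0.39.

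NR1D2 (REV-ERB beta), the repressor of the second loop, measured 11.48, 11.39, 10.74 and 11.72 in mated hens. It measured 11.33, 11.94, 11.89 and 11.46 in SF hens and 11.57, 11.32, 11.49 and 11.56 in control hens. Mated replicate 3 was the lowest and SF replicate 2 the highest, and the groups overlapped. The largest difference was -0.32 (SE 0.21, interval -0.78 to 0.13) for mated versus SF, and those against control were -0.15 (SE 0.21) in mated and 0.17 (SE 0.21) in SF hens.

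RORB, a receptor of the activating side of that loop, varied most among the members. It measured 6.91, 6.52, 9.32 and 5.59 in mated hens. It measured 8.63, 5.81, 7.63 and 6.71 in SF hens and 8.07, 8.98, 9.50 and 7.59 in control hens. The 12 hens spanned 3.92 log2 units, and 97.9% of the features of the array had a smaller spread within groups. RORB averaged 7.09 ± 1.59 in mated hens, 7.19 ± 1.21 in SF hens and 8.53 ± 0.87 in control hens (SD, n = 4 each). Mated versus control was -1.45 (SE 0.81, interval -3.23 to 0.34) with an unadjusted limma p of 0.101, and SF versus control was -1.34 (SE 0.81, interval -3.12 to 0.44) with an unadjusted limma p of 0.126. Mated versus SF was -0.11 (SE 0.81). Mated replicate 3 was the 1 mated hen within the range of the control hens. Without it, mated versus control was -2.19 (limma, unadjusted p = 0.00834), and with the array weights of limma it was -1.84 (unadjusted p = 0.0144). Leaving out the hen that overlapped the control hens was bound to widen the difference. The array weights were estimated from the same intensities, by how far an array departs from the fit, and are no separate measure of quality. Over all features, those past the unadjusted threshold also rose, from 828 to 2108 without that hen and to 1862 with array weights.

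**Figure D3:**
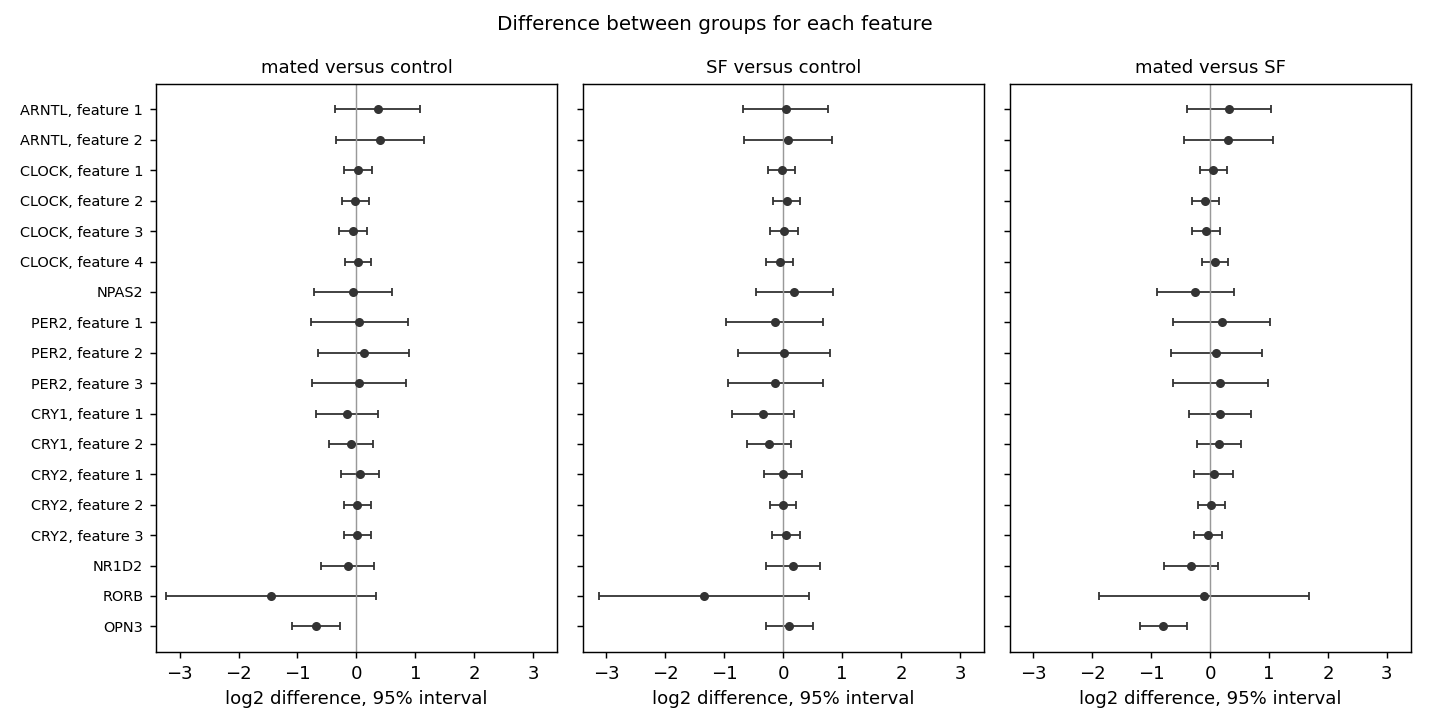
Log2 difference (x axis) with its 95% confidence interval from limma for the 17 features and the feature named BMAL1 (ARNTL, feature 2), in mated versus control, SF versus control and mated versus SF. The intervals of OPN3 leave out 0 in both comparisons of mated hens, and RORB has the widest intervals.

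RORB followed the markers of the eggshell gland, the segment next to the UVJ where the shell is laid down. An eggshell gland score was formed as the mean deviation, in log2 units, of 14 marker genes (among them CALB1, SPP1 and EDIL3) from their mean over 12 arrays. It was 0.49, -0.48, 0.85 and -1.44 in mated hens. It was 0.36, -1.46, -1.25 and -0.21 in SF hens and -0.34, 1.2, 1.83 and 0.47 in control hens. The control hens reached highest and overlapped both other groups. In bulk tissue, fewer cells of a type and less RNA per cell cannot be told apart. RORB rose by 1.04 per unit of the score beside the group means (SE 0.26, limma adjusted p = 0.0356 over all features). This relation was looked at after the values were seen, and 12.2% of the features of the array passed the same test. Across the 12 hens RORB correlated with the score at r = 0.819 (permutation p = 0.00145) and Spearman's coefficient = 0.797 (permutation p = 0.00303), and at r = 0.709 without the 2 hens farthest from the median score. Within the groups r was 0.864 in mated, 0.668 in SF and 0.831 in control hens.

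NPAS2 ran the other way. Its slope on the score was -0.39 (SE 0.09, limma adjusted p = 0.0304), with r = -0.73 (permutation p = 0.00859) and Spearman's coefficient = -0.64 (permutation p = 0.0300), and r = -0.66 without the 2 hens farthest from the median score. Within the groups r was -0.85 in mated, -0.57 in SF and -0.95 in control hens. NR1D2 had a slope of -0.25 (SE 0.07, adjusted p = 0.0529). In all, 9 genes were related to this score, and RORB and NPAS2 passed the adjustment over all features. Over the array 12.2% of the features passed this test, so that count is of the same order and does not set the members apart. With 1 array left out the RORB slope lay between 0.80 and 1.21 and passed the adjustment in 4 of 12 fits, and the NPAS2 slope lay between -0.44 and -0.33 and passed in 7 of 12. With the replicate number as a block neither passed (RORB 0.75, adjusted p = 0.125, and NPAS2 -0.32, adjusted p = 0.130), and 8 features of the array did, against 4552 without the block. The score for squamous epithelium, which runs against that for the eggshell gland, gave a RORB slope of -1.46 (SE 0.41, adjusted p = 0.0454), in a test that 12.8% of the features of the array passed, and an NPAS2 slope of 0.50 (SE 0.16, adjusted p = 0.0676). With the tissue score (squamous less eggshell gland) in the model, RORB was -0.46 for mated versus control and 0.30 for SF versus control, and NR1D2 was -0.38 for mated versus control (unadjusted p = 0.0302). The part of the tissue share in the RORB differences was not tested beyond these values.

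**Figure D4:**
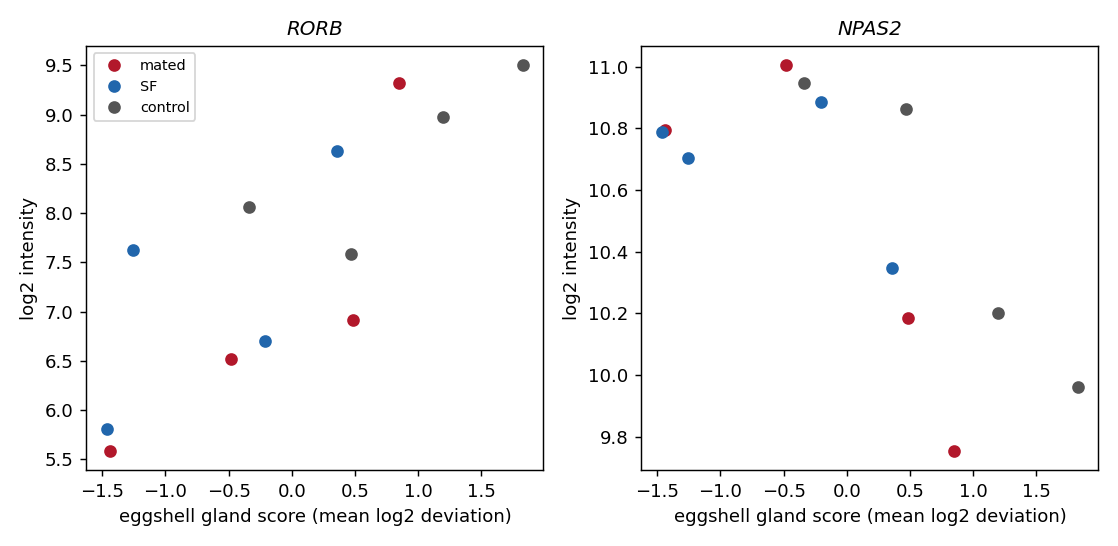
RORB (left) and NPAS2 (right) as log2 intensity (y axis) against the eggshell gland score (x axis, mean log2 deviation of 14 marker genes), 1 point per hen, coloured by group. RORB climbs with the score at r = 0.819 and NPAS2 declines with it at r = -0.73 over 12 hens.

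The activating and the repressing arm of a clock peak at different hours, so the level of ARNTL was set against the other members across hens. No member reached a permutation p under 0.05 against it. PER2 came nearest, with r = 0.508 (permutation p = 0.0943) and Spearman's coefficient = 0.455 (permutation p = 0.141). For PER2 r was 0.475 without SF replicate 4. Within the groups it was -0.06 in mated, 0.90 in SF and 0.83 in control hens, each over 4 hens. The PER2 slope in limma was 0.58 (SE 0.31), and 1.11 (SE 0.54, unadjusted p = 0.0722) without SF replicate 4. Its r was 0.07 without the 2 hens farthest from the ARNTL median. OPN3 gave r = -0.46 (permutation p = 0.137) and Spearman's coefficient = -0.27 (permutation p = 0.404), and r was -0.13 without those hens. CLOCK, NPAS2, CRY1, CRY2, NR1D2 and RORB lay between r = -0.23 and 0.04. Within groups of 4 hens their r varied. It was 0.41 in mated, 0.04 in SF and -0.99 in control hens for CRY1, and 0.41, 0.17 and -0.99 for RORB. With 12 hens, a relation that did not pass is not shown to be absent. Of these 8 relations none passed, and in the limma fit beside the group means 0 of 16 features of the other members had an unadjusted p under 0.05 (smallest adjusted p = 0.442). Over the array, 14.0% of the features had an unadjusted p under 0.05 in that fit, and 570 features (1.53%) passed the adjustment.

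The array-wide association with ARNTL rested on SF replicate 4. Without that hen 1616 features had an unadjusted p under 0.05 and 0 passed the adjustment, with a smallest adjusted p of 0.397. The 5 characterised genes with the strongest positive association were SCD (slope 1.81, SE 0.14), a fatty acid desaturase, RBM6 (slope 2.49, SE 0.22), an RNA-binding protein, ZNF236 (slope 0.93, SE 0.10), ABI2 (slope 1.44, SE 0.17) and PACS1 (slope 1.81, SE 0.21). SCD stood at 9.52 in SF replicate 4 and at 10.19 to 12.39 in the other 11 hens. Each of the 5 was lowest in SF replicate 4. The 5 with the strongest negative association were ASB12 (slope -0.83, SE 0.12), KCRS (slope -1.16, SE 0.18), PRTG (slope -0.96, SE 0.15), ATP5I (slope -0.96, SE 0.16) and PDE12 (slope -0.42, SE 0.08), and each of these was highest in that hen. KCRS and ATP5I were dim, at 3.82 to 4.52 and 3.23 to 4.71 in the other 11 hens, which reaches below the random-sequence control. SCD and RBM6 were also the genes most like ARNTL over the 12 hens (r = 0.974 and 0.955).

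HLF, an output gene of the clock, was lowest in the same hen, and so were 2 of the 3 TEF features. SF replicate 4 was the lowest of 12 in 11.8% of all features and in 7 of 43 clock genes, and the highest in 4 of those 43. HLF was named for its association with ARNTL, which is itself lowest in that hen. HLF, a transcription factor of the family through which the clock drives daily rhythms in other genes, measured 13.14, 13.40, 13.49 and 12.60 in mated hens. It measured 13.19, 13.32, 13.25 and 11.69 in SF hens and 13.54, 13.35, 13.07 and 13.50 in control hens. SF replicate 4 was again the lowest of 12. The HLF slope on ARNTL was 0.87 (SE 0.20, adjusted p = 0.0693), and without that hen it was 0.38 (SE 0.31). TEF, of the same family, had 3 features, and the middle one in brightness, singled out after its association with ARNTL was seen, measured 11.34, 11.75, 11.39 and 11.37 in mated hens, 11.58, 12.06, 11.79 and 10.65 in SF hens and 12.01, 11.64, 11.11 and 12.10 in control hens. Its slope was 0.80 (SE 0.15, adjusted p = 0.0332) and 0.77 (SE 0.28, unadjusted p = 0.0227) without SF replicate 4, while the brightest TEF feature, which represents the gene in its list, had a slope of 0.11 (SE 0.08, unadjusted p = 0.201) and the dimmest 0.08 (SE 0.23). The dimmest was lowest in mated replicate 4 (7.98), with SF replicate 4 at 8.59.

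CCRN4L (nocturnin), an output gene that is rhythmic in many tissues, ran against ARNTL in each group. It measured 11.09, 10.99, 10.85 and 10.95 in mated hens. It measured 10.80, 10.53, 10.48 and 10.96 in SF hens and 11.03, 10.97, 11.53 and 10.67 in control hens. Within the groups r with ARNTL was -0.98 in mated, -0.85 in SF and -0.86 in control hens, each over 4 hens. Over all 12 hens r was -0.54 (permutation p = 0.0783) and Spearman's coefficient was -0.67 (permutation p = 0.0204), and r was -0.55 without the 2 hens farthest from the ARNTL median. The slope beside the group means was -0.39 (SE 0.12, unadjusted p = 0.0102, adjusted p = 0.185), and it was -0.67 (SE 0.20, unadjusted p = 0.00854) without SF replicate 4. It did not pass the adjustment over all features, and CCRN4L was singled out after its values were seen. Of the 13 clock output genes, 1 with a positive and 1 with a negative slope had an unadjusted p under 0.05 in that limma fit. Over all features 14.0% did, which is of the same order.

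**Figure D5:**
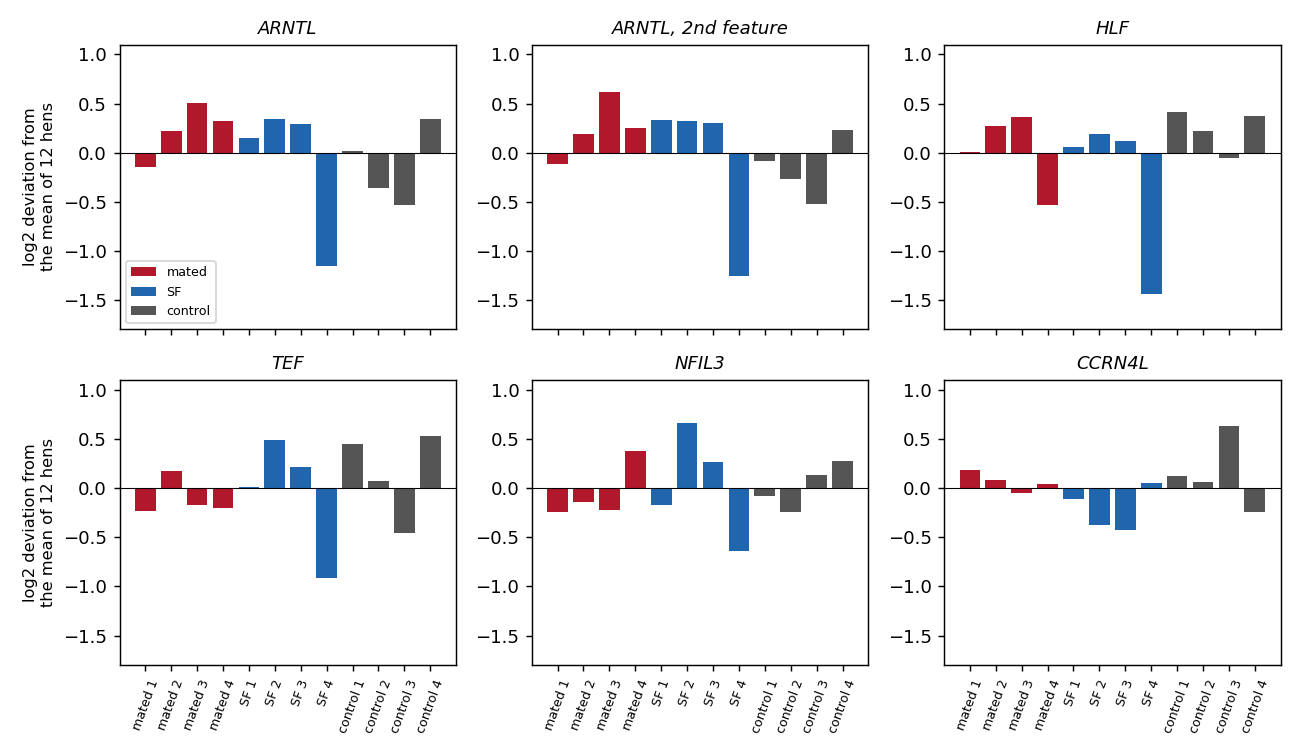
Deviation of ARNTL, its feature named BMAL1 (2nd feature), HLF, TEF (the feature with the ARNTL association), NFIL3 and CCRN4L from their mean over 12 hens, in log2 units (y axis), for each hen (x axis). SF replicate 4 has the lowest bar in the panels of ARNTL, HLF, TEF and NFIL3, and CCRN4L has its highest bar in control replicate 3. HLF, the TEF feature, NFIL3 and CCRN4L are drawn for their association with ARNTL, and SF replicate 4 was the lowest of 12 in 11.8% of all features.

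Of the other clock genes, few stood out by group. None of the 5 further genes of the loop (ARNTL2, BHLHB2, NFIL3, RORA and TIPIN) passed the unadjusted threshold in any comparison, with medians of -0.06 in mated versus control, -0.01 in SF versus control and 0.05 in mated versus SF. A further feature named BMAL2, another name of ARNTL2, did not pass either. Against ARNTL, NFIL3 (slope 0.55, SE 0.19) and BHLHB2 (slope 1.16, SE 0.47), both repressors, had an unadjusted p of 0.0156 and 0.0338, and both lost it without SF replicate 4 (unadjusted p of 0.303 and 0.346), BHLHB2 also without SF replicate 2 or 3 or control replicate 2 or 4. These 2 of 5 genes stand beside 14.0% of all features in that fit. FOSL2, a gene of the immediate early list and of no clock list, passed the adjustment in both its features (slopes 1.55 and 1.61, limma adjusted p = 0.0434). It was named outside the naming rule given below, and both features were lowest in SF replicate 4 (7.64 and 7.53). Without that hen the slopes were 1.47 and 1.48 (limma, unadjusted p of 0.0330 and 0.0370), and 0 features of the array passed the adjustment. For its brightest feature r with ARNTL was 0.37 without the 2 hens farthest from the ARNTL median. Of 17 genes that modify clock proteins, 0 passed in mated versus control, 2 lay lower in SF versus control and 1 lay higher in mated versus SF, beside shares of 2.22%, 6.47% and 4.7% over all features, which are of the same order. CSNK2A1, a catalytic subunit of casein kinase 2, which phosphorylates clock proteins, measured 12.09, 12.23, 12.17 and 12.04 in mated hens, 11.98, 11.93, 11.91 and 11.63 in SF hens and 12.43, 12.11, 12.05 and 12.08 in control hens. Every SF hen lay below every mated and every control hen. Groups that do not overlap were found for 3.84% of all features in SF versus control and 3.04% in mated versus SF. The difference was -0.30 (SE 0.11, limma adjusted p = 0.735) for SF versus control and 0.27 (SE 0.11, limma adjusted p = 0.998) for mated versus SF. PPP1CB, a phosphatase subunit, was -0.18 (SE 0.07) for SF versus control and -0.11 (SE 0.07, limma unadjusted p = 0.165) for mated versus control. Every SF hen and every mated hen lay below every control hen in PPP1CB. Groups that do not overlap were found for 1.34% of all features in mated versus control. The calls of CSNK2A1 and PPP1CB past the unadjusted threshold hung on single hens. In SF versus control CSNK2A1 was -0.23 (unadjusted p = 0.0668) without SF replicate 4 and -0.22 (unadjusted p = 0.0688) without control replicate 1, and PPP1CB lost its call without SF replicate 3 (-0.15, unadjusted p = 0.0917) or without control replicate 1, 3 or 4. In mated versus SF CSNK2A1 lost its call without mated replicate 1, 2 or 3 or SF replicate 3 or 4, and was 0.19 (unadjusted p = 0.112) without SF replicate 4. Over the 17 genes the median was -0.03 in mated versus control, -0.04 in SF versus control and 0.02 in mated versus SF. CSNK2A2, the other catalytic subunit, had a slope of 0.46 (SE 0.10, adjusted p = 0.0523) on ARNTL, and 0.31 (SE 0.17) without SF replicate 4.

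Of 13 clock output genes, 2 averaged below the random-sequence control. By the brightest feature of each gene, 0 of 13 passed in mated versus control, and TPH2 alone passed in SF versus control and in mated versus SF. Over all features 2.22%, 6.47% and 4.7% passed in these comparisons, so 1 of 13 is of the same order. TPH2 makes the rate-limiting enzyme of serotonin synthesis in neurons. It measured 6.28, 5.95, 5.01 and 6.16 in mated hens, 6.51, 7.75, 6.90 and 7.81 in SF hens and 7.27, 4.69, 5.17 and 6.33 in control hens. All SF hens lay above all mated hens, whereas control replicate 1 lay within the range of the SF hens. In mated versus SF 3.04% of all features had groups that do not overlap. The difference was 1.38 (SE 0.54, unadjusted p = 0.0269) for SF versus control and -1.39 (SE 0.54, unadjusted p = 0.0256) for mated versus SF. The SF versus control call was lost without control replicate 2 (0.99, unadjusted p = 0.0855), control replicate 3 or SF replicate 2 or 4, and the mated versus SF call without mated replicate 3 (-1.11, unadjusted p = 0.0761) or SF replicate 2 or 4. Over the 13 genes the median was 0.05 in mated versus control, -0.08 in SF versus control and 0.06 in mated versus SF. USP2, a deubiquitinase that acts on clock proteins, had 5 features that disagreed: the one at about log2 6 was -0.38 (SE 0.11, unadjusted p = 0.00430) for SF versus control, and the brightest was 0.19 (SE 0.30). In mated versus SF the feature at about log2 6 was 0.30 (SE 0.11, limma, unadjusted p = 0.0172) and the brightest was -0.11 (SE 0.30). None of these genes passed the adjustment over all features in a group comparison.

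Genes of the tissue's marker lists passed the unadjusted threshold mainly in SF versus control, where 6.47% of all features passed it. The lists were chosen with earlier results of these data known, so their counts and medians are a description and not a test. There 5 of 14 eggshell gland genes lay lower (SPP1, BPIL3, SLC4A7, ITPR2 and CLCN5), with a list median of -0.75. In the same comparison 5 of 13 squamous epithelium genes (TP63, KRT5, KRT14, VGLL1 and GRHL3, median 0.93) and 4 of 15 ciliated cell genes (LRRC23, HYDIN, CCDC40 and DNAI1, median 0.47) lay higher, against a median over all features of 0.01. Smooth muscle (7 genes, median 0.08), T lymphocyte (11 genes, median 0.40) and immediate early (10 genes, median 0.14) lists had 0 genes past it there. In mated versus control, where 2.22% of all features passed, the eggshell gland gene RARRES1 lay lower (-1.0, SE 0.41), and the eggshell gland median was -0.69. The other lists had 0 genes past the threshold there, with a T lymphocyte median of 0.52. In mated versus SF, where 4.7% passed, the squamous epithelium gene GRHL3 (-0.50, SE 0.20) and the immediate early gene FOS (-1.0, SE 0.43) lay lower. None of these genes passed the adjustment over all features. With the tissue score in the limma model, SF versus control was -0.35 for CSNK2A1 (unadjusted p = 0.0357), -0.16 for PPP1CB (unadjusted p = 0.0954) and 0.60 for TPH2 (unadjusted p = 0.318). In that comparison CSNK2A1 stayed past the unadjusted threshold and PPP1CB and TPH2 did not. In mated versus SF both CSNK2A1 (0.29, unadjusted p = 0.0366) and TPH2 (-1.08, unadjusted p = 0.0473) stayed past the threshold in the limma model with that score.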

How the data were processed

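RNA of the utero-vaginal junction from 12 hens (4 mated, 4 SF, 4 control) was measured on a custom chicken array (NimbleGen, 1 colour, Cy3), with 1 array per hen. The authors deposited linear intensity values per feature, computed by robust multichip averaging (background adjustment, quantile normalisation between arrays and summarisation of the probes, 3 for most features). The deposited number of probes per feature, another column, was used only to describe the array. For 37364 features the deposited series table repeats these intensities without a difference. No genome build was given in the sources used, and no coordinates are printed. The arrays hold no read depth, and their number and the distance to the random-sequence control limit the precision.

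The log2 of each intensity was taken with no pseudocount, the lowest intensity being 4.22. Differences came from limma 3.58.1 in R 4.3.3, with a mean per group over 12 arrays, empirical Bayes moderation and Benjamini-Hochberg adjustment over 37374 features. The study's unadjusted threshold of 0.05 was counted beside it. Single features had an exact permutation test and relations across hens 100000 permutations. All tests were two-sided. The limma comparisons of group pairs and the association with ARNTL were checked on simulated data, and the other tests were not. The limma p-values weigh a difference or slope against the spread between hens, and the permutation p-values rank it among reshuffled hens. A gene in a list was represented by its brightest feature. A part of the opsin list is not reported here.

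The members, lists and tests were chosen with earlier results of these data known. Named were all members and the genes of the clock and opsin lists past the unadjusted threshold in a comparison of groups (up to 6 each). So were the 2 genes most like OPN3 and ARNTL, and the 5 positive and 5 negative characterised genes most associated with ARNTL. Outside this rule, HLF, CCRN4L, NFIL3, BHLHB2 and CSNK2A2 were named for an unadjusted limma p under 0.05 in the ARNTL association. Tried as alternatives were the series table, a pseudocount of 16, arrays centred on their median, a further quantile normalisation, filters at the 25th percentile and the median of brightness, fits of only 2 groups, a block for the replicate number, trended robust moderation, array weights, a tissue score as covariate, PER2 as the anchor of the association, no group means in it, and leaving out each array. The feature named BMAL1 as anchor, r without SF replicate 4 and the eggshell gland association were added after seeing the data.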

Additional observations from a re-analysis of the deposited data

Results flagged for a closer look

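Among 87 groups of 4 hens examined (29 features in 3 groups), 10 held a hen that stood far from the others by Dixon's gap, and chance flags about 1 in 20 groups. Over the whole array the share was 7.04% in mated, 5.99% in SF and 4.35% in control hens. The 29 features include several of 1 gene, which are not replicates. They also include HLF, NFIL3 and CSNK2A2, named for their association with ARNTL. ARNTL is itself lowest in SF replicate 4, so low values of HLF and CSNK2A2 there were favoured by the choice. The 10 flags therefore cannot be set against the rate by chance or the shares over the array. ARNTL at 9.64 and its feature named BMAL1 at 10.15 were the lowest of the SF group in SF replicate 4, where the next hens stood at 10.95 and 11.71. In the same hen HLF at 11.69 and CSNK2A2 at 11.96 were lowest, against next values of 13.19 and 12.69. A low SF replicate 4 of this kind was found for 1.68% of all features. That hen was the lowest of 12 in 7 of 43 clock genes (16.3%) and in 11.8% of all features, and mated replicate 3 was the lowest in 8 of 43 (18.6%) and in 15.5% of all features.

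The other hens of this kind were SF replicate 3 in the dimmer CRY1 feature (10.45, the next hen at 10.86) and SF replicate 2 in 1 CRY2 feature (13.47, the next at 13.80). Another CRY2 feature was low in mated replicate 4 (13.62, the next at 13.70) and high in control replicate 2 (13.94, the next at 13.60). NFIL3 was high in mated replicate 4 (10.88, the next at 10.36) and CSNK2A1 was high in control replicate 1 (12.43, the next at 12.11).

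OPN3 differed between the 2 treatments, with mated hens -0.79 (SE 0.18) from SF hens. The limma p of 0.00120 did not pass the adjustment over all features (adjusted p = 0.733), and 4 of 4 mated hens lay below all SF hens.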

How the results depend on the processing

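The OPN3 differences of mated hens from SF and control hens kept their direction and an unadjusted p under 0.05 in limma under every alternative in which the feature was tested, and both filters on dim features removed it, so that the count of members past the unadjusted threshold was 0 in mated versus control, in mated versus SF and in the F test. In mated versus control that count was 2 with the replicate block, array weights or the tissue score, where RORB (or NR1D2, with the tissue score) joined OPN3, and it was 2 in the F test with array weights. Counts over all features were 391 and 191 in mated versus control with the filters at the 25th percentile and the median, 1597 and 1081 in SF versus control, 728 and 370 in mated versus SF, and 817 and 467 in the F test, where fewer features were tested. Array weights gave 1862, 4064, 2817 and 3051 in that order, and the tissue score gave 1573 in mated versus control and 2602 in the F test. A fit of only the 2 groups compared passed 1 feature after adjustment in mated versus SF. The cause was not tested.

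With array weights NPAS2 and CRY2 turned sign in mated versus control (0.12 and -0.032) and CLOCK in SF versus control (0.0089). With the tissue score PER2 (-0.14) and CRY1 (0.0065) turned in mated versus control, and CRY2 in mated versus SF (-0.032). In SF versus control CLOCK (0.093), ARNTL (-0.33), NPAS2 (-0.41), CRY2 (0.13), NR1D2 (-0.22), RORB (0.30) and OPN3 (-0.0032) turned. None of these had passed a threshold.

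Features past the adjustment in the ARNTL association numbered 1 with PER2 as anchor, 311 with the feature named BMAL1, 184 with the tissue score and 179 with the replicate block, and with the tissue score 1 member feature passed unadjusted.

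Replicate numbers showed no clear pairing of the hens: deviations of same-numbered hens correlated at r = -0.36 to 0.62 over 12 pairs, with 4 over 0.1, and 3 of 12 arrays were most like their own number. The labels do not say what the numbers stand for, and correlations over the whole array can miss a weaker pairing. With the replicate block the counts were 940 (mated versus control), 2649 (SF versus control), 1827 (mated versus SF) and 1788 (F test), RORB in mated versus control had an unadjusted p of 0.0487, and the eggshell gland slopes were 0.75 for RORB (adjusted p = 0.125) and -0.32 for NPAS2 (adjusted p = 0.130).

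Leaving out each array gave 589 to 2108 features in mated versus control (2108 without mated replicate 3), 1502 to 3505 in SF versus control (1502 without SF replicate 3) and 1035 to 2210 in the F test (1035 without SF replicate 3). After adjustment 0 to 1 passed in mated versus control, mated versus SF and the F test, and 1 to 2 members passed unadjusted in mated versus control and the F test. The exact p of OPN3 was 0.0286 to 0.0571 in both comparisons. The ARNTL association gave 1616 to 8705 features, and 0 to 1601 after adjustment (0 without SF replicate 4, 1601 without mated replicate 3). The eggshell gland slopes ran between 0.80 and 1.21 for RORB and between -0.44 and -0.33 for NPAS2. In mated versus control CLOCK gave -0.033 to 0.071, NPAS2 -0.25 to 0.17, PER2 -0.30 to 0.33, CRY1 -0.21 to 0.014, CRY2 -0.040 to 0.087 and NR1D2 -0.28 to 0.046. In SF versus control CLOCK gave -0.065 to 0.059, ARNTL -0.11 to 0.39, PER2 -0.47 to 0.15 and CRY2 -0.057 to 0.065. In mated versus SF CLOCK gave -0.031 to 0.097, ARNTL -0.035 to 0.46, CRY2 -0.033 to 0.075 and RORB -0.85 to 0.39. OPN3 at 0.24 to 1.70 above the random-sequence control is the member that signal limits most.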
